A study of Rattus norvegicus with 12 samples.

Results

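Myelin genes were followed in the dorsal root ganglion, which holds the cell bodies of sensory neurons, after ligation of the spinal nerve. The set was Mbp, Pmp22, Mag, Prx, Cnp, Mal and Pmp2, 7 genes in all, and its members were every probe set that the platform annotation assigns to one of them. A probe set is the group of short probes on the array that report on a transcript. Of the 7 genes, 6 had at least 1 probe set, and these 6 genes made up 9 of the 15923 probe sets on the array, of which 15866 were not controls. Mbp, Pmp22 and Cnp had 2 probe sets each. Pmp2 matched none and was not analysed here.

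The 12 arrays came from adult male Sprague Dawley rats of 180 to 300 g and form 4 groups of 3. HP sham and LP sham were ganglia of 2 genetic sub-lines, High Pain (HP) and Low Pain (LP), after surgery that left the nerve undamaged. HP SNL and LP SNL were ganglia of the same sub-lines 3 days after spinal nerve ligation (SNL) of L4 and L5, a rat model of neuropathic pain, and all RNA was from L4/L5 ganglia. The labels name no transgene, deletion or drug in any group, and do not say whether an array held 1 animal or several, so p-values reflect the spread among the arrays of a group, and that spread may be technical. The ligature lies distal to the ganglion, so the tissue profiled holds the cell bodies and the myelinated axon stretches within the ganglion, not the degenerating nerve stump.

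Peripheral myelin is made by Schwann cells, which wrap their membrane around a single axon segment. Compact layers are held together by adhesive membrane proteins and by basic proteins of the cytoplasmic face, while uncompacted regions carry receptors and scaffolds that face the axon or the outer basal lamina. In an injured nerve distal to the cut, Schwann cells are known to shut down myelin genes and take on a repair state. The question addressed here was whether myelin transcripts also fall in the ganglion itself, proximal to the tie, at 3 days.

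Most myelin transcripts did not pass the test in either direction. Averaged over both lines, the exceptions were Cnp, which rose by 0.54 ± 0.08 and 0.46 ± 0.07 (log2 difference ± SE) on its 2 probe sets, and Mal, which fell by 0.33 ± 0.08. Limma's adjusted p was 0.00118 and 0.00154 for Cnp and 0.0153 for Mal (Benjamini-Hochberg over all 15866 probe sets). All log2 differences were computed after adding 1 to each signal. The other 6 probe sets, of Mbp, Pmp22, Mag and Prx, lay between -0.10 and 0.22. In all, 3 of the 9 probe sets were called in this comparison, 2 higher and 1 lower, against 21% of all probe sets, 10.9% higher and 10.1% lower. The members are bright, and 31.8% of the probe sets with a mean signal above the median were called, so the share among the myelin probe sets was near the background. The median difference was 0.11 over the 9 probe sets and 0.01 over all probe sets. Because whole ganglia were profiled, a change in the number of cells of a type and a change of RNA per cell cannot be told apart.

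**Figure D1:**
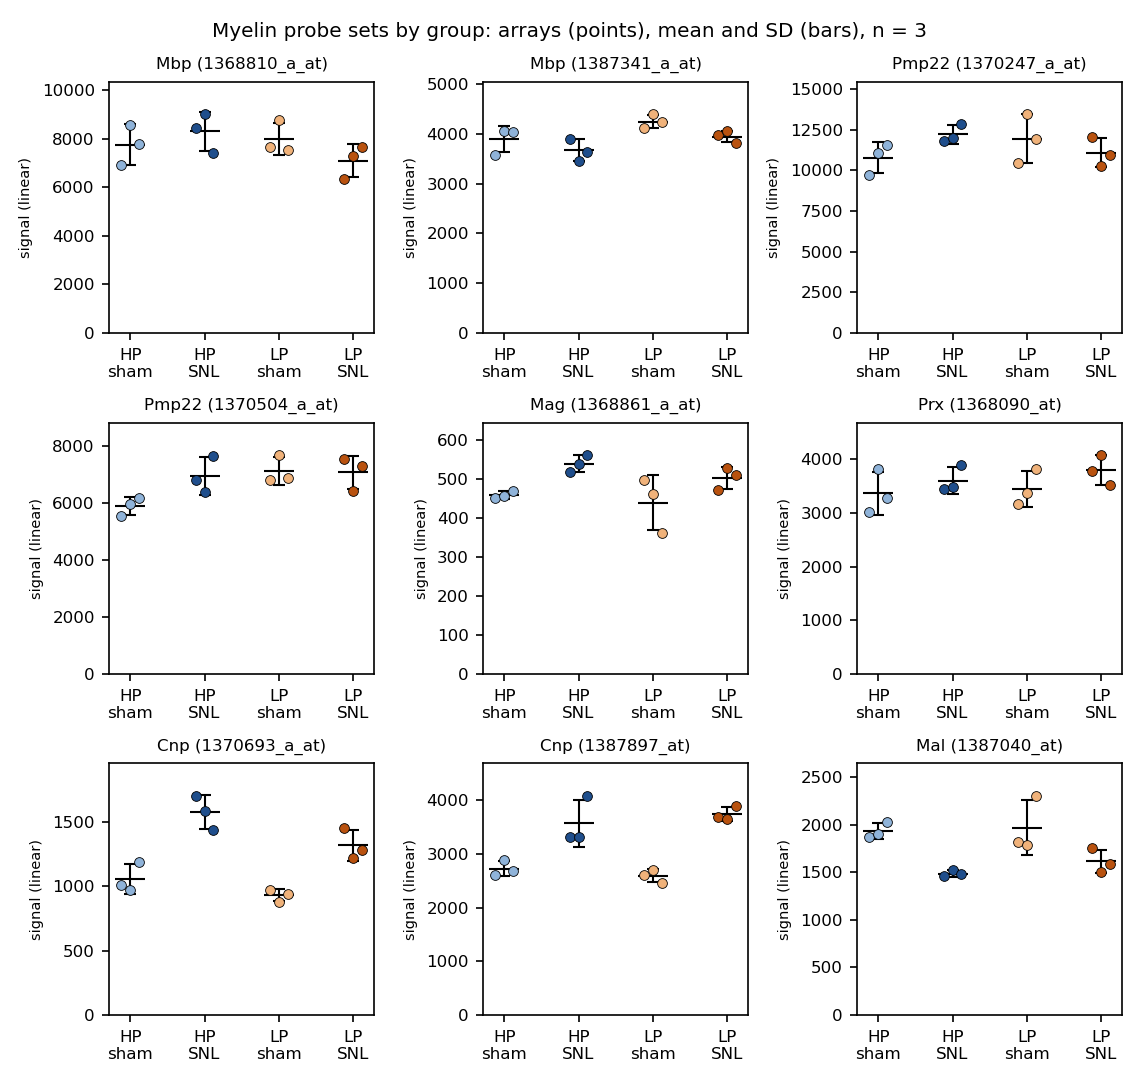
Linear signal of the 9 myelin probe sets (vertical axis, from 0) in the sham and SNL groups of HP and of LP. Points are the 3 arrays of a group in replicate order, the horizontal bar is the mean and the whiskers are the SD. Both Cnp probe sets are higher after SNL on every array of their line, Mal is lower on every array of its line, and the remaining panels show overlapping groups in at least 1 line.

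Cnp encodes 2′,3′-cyclic nucleotide 3′-phosphodiesterase, an enzyme of uncompacted myelin membrane. On probe set 1387897_at its signal was 2607.3, 2881.8 and 2686.6 in HP sham, against 3313.1, 3323.4 and 4072.8 in HP SNL. In LP sham the signal was 2600.7, 2706.7 and 2466.1, and in LP SNL it was 3691.0, 3653.7 and 3901.1. Every SNL array lay above every sham array of its line, and above every sham array of the other line as well. The mean signal was 31% higher after SNL in HP and 45% higher in LP.

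On probe set 1370693_a_at Cnp gave 1011.3, 972.9 and 1188.9 in HP sham, against 1698.9, 1586.1 and 1435.7 in HP SNL. The LP values were 972.7, 880.0 and 940.7 after sham and 1456.0, 1219.8 and 1278.6 after SNL. Again no sham array reached an SNL array. The log2 differences were 0.58 ± 0.12 in HP (adjusted p = 0.012) and 0.50 ± 0.12 in LP (0.0201) by limma, against 0.38 ± 0.10 (0.0426) and 0.53 ± 0.10 (0.00875) for 1387897_at. These 2 probe sets were the only members called in either line, 2 of 9 in HP, where 10.8% of all probe sets were called (5.42% higher and 5.34% lower), and 2 of 9 in LP, where 12.1% were (6.35% higher and 5.76% lower). They report on the same gene and are not independent.

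The rise of Cnp was firmer averaged over the lines than within HP. Averaged, both probe sets were called in every alternative that tested them, with adjusted p between 0.000129 and 0.0164 for 1387897_at and between 0.000144 and 0.00608 for 1370693_a_at. Within HP, 1387897_at lost the call in all 12 fits that left out 1 array, including the 6 that left out an LP array, which share only the estimate of the spread (differences 0.29 to 0.43, adjusted p 0.0523 to 0.137). In HP, 1370693_a_at lost it without HP sham replicate 1 (adjusted p = 0.0501). In LP, 1370693_a_at lost it without LP sham replicate 2 (0.0695), LP SNL replicate 1 (0.0778) and LP SNL replicate 3 (0.0524), at differences of 0.42 to 0.52. 1387897_at kept its call in LP in all 24 alternatives. With the ratio of the 3′ to the 5′ beta-actin probe set, a sign of RNA integrity, as a covariate, the HP difference of 1387897_at was 0.35 (adjusted p = 0.161). That ratio was 1.483 to 1.847 in HP sham and 1.118 to 1.342 in HP SNL, and its part in the HP result was not tested further.

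The 2 Cnp probe sets ranked the arrays of a group differently. HP SNL replicate 3 was the highest of its group on 1387897_at (4072.8) and the lowest on 1370693_a_at (1435.7). The ratio of the first to the second was 1.95, 2.10 and 2.84 in HP SNL and 2.54, 3.00 and 3.05 in LP SNL. Across the 12 arrays their deviations from the group means had a Pearson r of -0.54, given as a description, while the log2 signals themselves, which include the group differences, had r = 0.74. The difference between sham and SNL was thus shared by both probe sets, and the variation within groups was not.

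Mal encodes a proteolipid of compact myelin that takes part in raft-like membrane sorting. Its signal on probe set 1387040_at was 1868.9, 1907.4 and 2033.2 in HP sham, against 1459.0, 1525.7 and 1477.3 in HP SNL. The LP arrays gave 1822.1, 1787.9 and 2299.0 after sham and 1752.1, 1507.6 and 1582.5 after SNL. All SNL arrays lay below all sham arrays in both lines, closely so in LP, where the highest SNL and the lowest sham array were 1752.1 and 1787.9. The mean signal fell by 23% in HP and fell by 18% in LP.

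Within a single line the fall of Mal missed the threshold, at -0.38 ± 0.11 in HP (limma adjusted p = 0.062) and -0.28 ± 0.11 in LP (0.158). The interval of 95% ran from -0.63 to -0.13 in HP and from -0.53 to -0.03 in LP. In HP it passed without LP sham replicate 3 (0.0295) and with 4 other settings, among them array weights (0.0434). In LP it passed in none of 24 alternatives (0.082 to 0.362). Averaged over the lines it passed in all 23 alternatives run (0.00369 to 0.0407), at differences of -0.40 to -0.27.

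The start regions of the 2 genes that moved are shown because Cnp and Mal moved in opposite directions and differ in the motifs their windows hold. The sequences are RefSeq windows of the rat assembly GRCr8, 250 bases before to 50 bases after the annotated start, read 5′ to 3′ on the strand of the gene. Capitals mark matches to 2 of 3 short motifs searched on both strands. These were ACAAAG and ACAATG, cores bound by SOX factors such as Sox10, and GCGTGGG, a core bound by EGR factors such as Egr2. The Cnp window lies at chr10:86011254-86011553 on the plus strand and the Mal window at chr3:135341374-135341673 on the minus strand.
Cnp: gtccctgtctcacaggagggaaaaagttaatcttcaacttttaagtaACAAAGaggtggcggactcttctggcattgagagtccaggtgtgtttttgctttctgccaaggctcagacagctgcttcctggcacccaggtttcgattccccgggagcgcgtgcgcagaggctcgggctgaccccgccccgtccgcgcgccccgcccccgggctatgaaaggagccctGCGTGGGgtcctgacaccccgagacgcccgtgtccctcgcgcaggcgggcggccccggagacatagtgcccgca
Mal: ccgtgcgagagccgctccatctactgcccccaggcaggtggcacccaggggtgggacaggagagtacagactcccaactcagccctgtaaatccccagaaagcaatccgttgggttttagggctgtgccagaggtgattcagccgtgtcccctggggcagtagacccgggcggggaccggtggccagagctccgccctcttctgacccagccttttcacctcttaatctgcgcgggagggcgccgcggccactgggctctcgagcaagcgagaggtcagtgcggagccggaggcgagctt

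The Cnp window held ACAAAG beginning at position -203 and GCGTGGG at position -24 from the start site. The Mal window held none of the 3 motifs. Of 33469 promoter windows in the same table, 18.8% held ACAAAG, 13.2% held ACAATG and 4.33% held GCGTGGG on either strand. The 6 measured genes had 7 windows, since Mbp had 2, and 3 of the 7 held a match. Mag held 1 ACAAAG, and 1 of the Mbp windows held 1 ACAAAG and 2 ACAATG, both genes whose differences did not pass. A match describes letters only, and nothing follows about the binding of a factor.

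Mbp encodes myelin basic protein, which joins the cytoplasmic faces of compact myelin. On 1368810_a_at its signal was 6907.8, 8570.0 and 7801.3 in HP sham, 8466.1, 9010.2 and 7431.5 in HP SNL, 7655.3, 8758.6 and 7559.4 in LP sham, and 6345.7, 7277.5 and 7658.5 in LP SNL. The groups overlapped in both lines. On 1387341_a_at the signal was 3585.1 to 4052.4 in HP sham and 3462.8 to 3906.0 in HP SNL, which overlap, and 4114.3, 4393.9 and 4237.4 in LP sham against 3969.2, 4050.0 and 3820.0 in LP SNL, which do not. That LP difference was -0.11 ± 0.09 (limma adjusted p = 0.54). Averaged over the lines, the 95% interval of the ratio of SNL to sham was 0.85 to 1.12 for 1368810_a_at and 0.848 to 1.03 for 1387341_a_at.

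Pmp22 encodes peripheral myelin protein 22, a tetraspan protein of compact myelin whose gene dosage underlies common inherited neuropathies. On 1370247_a_at it read 9731.3, 11099.2 and 11546.9 in HP sham, against 11788.1, 12006.5 and 12861.9 in HP SNL. In LP it read 10475.6, 13454.5 and 11937.0 after sham and 12028.9, 10278.7 and 10974.2 after SNL. SNL arrays lay above sham arrays in HP and overlapped them in LP. This probe set ranked between 1 and 8 among the brightest of all 15923 on every array, and whether its signal was limited by the scanner's range was not tested.

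On the dimmer Pmp22 probe set, 1370504_a_at, the HP arrays gave 5556.8, 5966.9 and 6183.9 after sham and 6809.0, 6385.7 and 7672.1 after SNL, and the LP arrays lay at 6813.0 to 7687.8 and 6434.8 to 7549.4. The pattern was the same, with separate groups in HP and overlapping groups in LP. The HP differences of the pair were 0.18 ± 0.12 and 0.23 ± 0.11 (limma adjusted p = 0.404 and 0.221), and the LP differences were -0.10 ± 0.12 and -0.01 ± 0.11 (0.674 and 0.978). The difference between the lines in this response was -0.29 ± 0.17 and -0.24 ± 0.15, with an adjusted p of 0.984 for both. Averaged over the lines, the 95% intervals of the ratio were 0.902 to 1.17 and 0.961 to 1.22.

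Mag encodes myelin-associated glycoprotein, a receptor of the innermost Schwann cell membrane that faces the axon. The HP arrays gave 452.3, 457.2 and 470.8 after sham and 519.1, 538.4 and 561.7 after ligation, without overlap. The LP arrays gave 497.6, 462.5 and 361.2 after sham and 473.0, 528.2 and 510.4 after SNL, with overlap. The differences were 0.23 ± 0.12 in HP (limma adjusted p = 0.284) and 0.21 ± 0.12 in LP (0.344). Averaged, the difference was 0.22 ± 0.08 (0.105), and the 95% interval of the ratio was 1.02 to 1.33. The averaged difference passed only with the actin ratio as a covariate (0.33, adjusted p = 0.0474).

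Prx encodes periaxin, a scaffold that ties the outer Schwann cell membrane to the basal lamina through dystroglycan. It read 3006.7, 3806.1 and 3271.0 in HP sham, 3436.5, 3474.7 and 3881.7 in HP SNL, 3163.2, 3369.3 and 3811.9 in LP sham, and 3783.0, 4070.1 and 3516.7 in LP SNL. The groups overlapped in both lines. The averaged difference was 0.12 ± 0.08 (limma adjusted p = 0.378), with a 95% interval of the ratio from 0.953 to 1.24.

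Read together, 6 of the 9 probe sets had separate sham and SNL ranges in HP, 5 of them higher and 1 lower after SNL. Over all probe sets, 31.5% had separate ranges in HP (15.6% higher and 15.9% lower), and 43.1% of those with a mean signal above the median did. In LP 4 of the 9 had separate ranges, 2 higher and 2 lower, against 29% of all (15.4% higher and 13.6% lower) and 39.7% of the brighter ones. Of the 6 uncalled probe sets, the lowest bound of a 95% interval averaged over the lines was a ratio of 0.848. These intervals are not adjusted for the number of probe sets.

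**Figure D2:**
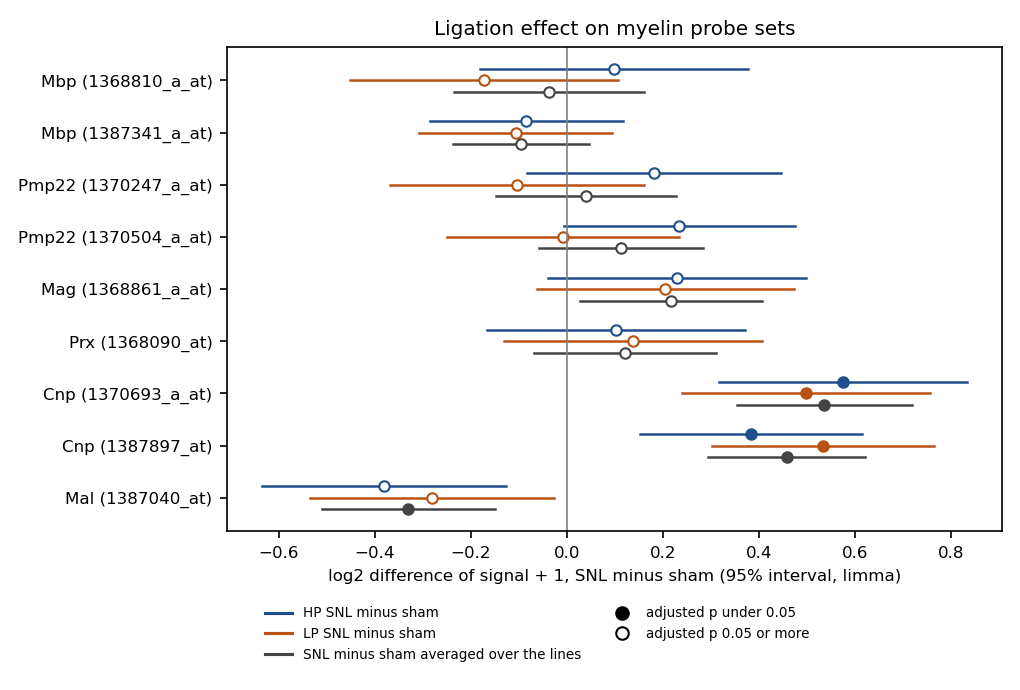
Log2 difference of SNL minus sham (horizontal axis) for the 9 myelin probe sets in HP, in LP and averaged over both lines. Circles are limma estimates, lines their 95% intervals, and filled circles have an adjusted p under 0.05. The Cnp probe sets lie to the right of 0 in all 3 comparisons, Mal lies to the left, and the remaining intervals span 0 except the averaged Mag interval.

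No myelin probe set passed the test between the lines by limma. After sham, 0 of 9 were called (0.0441% of all probe sets, 7 in number), and after SNL 0 of 9 (0.145%, 23 in number). At an unadjusted p under 0.05 the counts were 1 of 9 after sham and 0 of 9 after SNL, against 1500 and 1684 of all 15866 probe sets. The lowest adjusted p among the members was 0.486 after sham and 0.473 after SNL. The first belonged to Pmp22 on 1370504_a_at, with 5556.8 to 6183.9 in HP sham against 6813.0 to 7687.8 in LP sham, a difference of 0.27 ± 0.11 between groups that did not overlap. The second belonged to Cnp on 1370693_a_at, which was lower in LP SNL by -0.26 ± 0.12, while 1387897_at read 0.08 ± 0.10 in the same comparison. The interaction, which asks whether ligation acted differently in the lines, called 0 of 9 and 0% of all probe sets, with 0 of 9 and 747 of 15866 at an unadjusted p under 0.05. For the 2 Cnp probe sets it was -0.08 and 0.15, with 95% intervals of -0.44 to 0.29 and -0.18 to 0.48, and for Mal it was 0.10 (-0.26 to 0.46).

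Myelin transcripts did not vary as a block between arrays of the same group. Over the 33 pairs of probe sets of different genes, the Pearson r of deviations from the group means over 12 arrays ranged from -0.84 to 0.71 with a median of 0.07. The 2 Pmp22 probe sets had r = 0.81, and Pmp22 on 1370504_a_at and Cnp on 1387897_at had r = 0.71. The lowest value, -0.84, joined Mag and Mal. It rested largely on LP sham replicate 3, which had the lowest Mag signal (361.2) and the highest Mal signal (2299.0) of all 12 arrays, and was -0.39 over the 11 other arrays. These correlations share the arrays' scaling and are given as descriptions.

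Among genes with a signal above the median, those whose log2 signals were most like Cnp over the 12 arrays were Arf4, a small GTPase of the Golgi (Pearson r = 0.98), Fuca1, a lysosomal fucosidase (0.97), and Sh3bp5 (0.96). All 3 had positive ligation differences in both lines, from 0.30 to 1.14. Those most like Mal were Pknox2, Zfhx3 and Srpk2 (r = 0.93, 0.92 and 0.91), transcription factors and a splicing kinase, with differences of -0.78 to -0.30. As r was taken over sham and SNL arrays together, the signs of the differences for Cnp and Mal follow largely from the choice. No other member was among the 3 most like any member. For Mag these were Map4k4, Ctdsp2 and Scarb1 (0.92, 0.89 and 0.88), for Prx Rab10, Magoh and Rpl24 (0.91, 0.90 and 0.89), for Pmp22 Cnbp, Plxnd1 and H2aj (0.87, 0.79 and 0.76) and for Mbp Setd3, Mrpl36 and Rnf8 (0.80, 0.79 and 0.74).

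Related genes were read from 7 lists, each gene by its brightest probe set and averaged over the lines, where 12.2% of 10411 genes were higher, 10.9% were lower and the median was 0.01. Of 20 measured other myelin proteins and relatives of members, 4 rose and 1 fell (2 fell with trended and robust variance), with a median of 0.05. The risers Emp1 (1.07 ± 0.12), Emp3 (0.82 ± 0.07) and Emp2 (0.62 ± 0.08) encode tetraspan proteins of the family of Pmp22 that are not particular to myelin. Emp3 went from 1250 ± 110 to 2152 ± 93.7 in HP (SD, n = 3). The fourth riser, Tspan2 (0.49 ± 0.15), was named after its values were seen. Mal2, a relative of Mal that is not particular to myelin either, fell by 0.74 ± 0.14. It went from 160 ± 24.3 to 106 ± 4.30 in HP and from 173 ± 38.7 to 92.8 ± 18.6 in LP. Apart from these relatives, Tspan2 was the only gene of the list called. Limma's adjusted p was between 4.39e-05 and 0.0363 for these 5.

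The contact between axon and Schwann cell is organised at the node. Of 18 measured genes of the node and the junctions beside it, 9 fell and 0 rose, with a median of -0.25. Cntnap1, the Caspr protein of the axon side of the paranode, fell by 1.54 ± 0.11, from 655 ± 73.8 to 290 ± 28.6 in HP and from 576 ± 23.7 to 154 ± 31.7 in LP. Cntnap2, its counterpart beside the potassium channels, fell by 1.11 ± 0.10 and the adhesion gene Cadm1 fell by 1.07 ± 0.07. Adam22, an axonal partner of LGI proteins, fell by 0.92 ± 0.07, while its other probe set, at a mean signal of 110, had a difference of -0.07. Neurons express these genes, and Cadm1 is also among the satellite glia markers given further on. Neuron markers fell in 10 of 17, with a summed signal of 76472 to 80856 in HP sham, 63145 to 67682 in HP SNL, 73802 to 79907 in LP sham and 56391 to 62463 in LP SNL. The uncalled neuron markers were Nefl, Tubb3, Nefm, Nefh, P2rx3, Uchl1 and Prph, at -0.15 to 0.02, named after their values were seen. The part of the fall of neuron markers in the junction list was not tested.

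Regulators of the myelin programme did not fall as a group. Of 19 measured, 3 rose and 1 fell, with a median of 0.20, and 5 rose without HP SNL replicate 1. Sox10, the transcription factor that specifies Schwann cells, rose by 0.38 ± 0.07 (limma adjusted p = 0.00271). Its signal went from 1144 ± 36.4 to 1514 ± 141 in HP and from 868 ± 9.19 to 1116 ± 73.9 in LP. Which cells the rise of Sox10 came from was not tested. The others that rose were Tead1, a nuclear partner of YAP and TAZ (0.65 ± 0.10), and Nab2, a co-regulator of EGR factors (0.47 ± 0.10). Egr2, the factor that drives peripheral myelination, had 0.32 ± 0.14 (0.152) and is named outside the rule, after its values were seen. Nrg1, the axonal signal for myelin thickness, fell by 0.65 ± 0.09 on its brightest probe set. Its other 7 probe sets lay between -1.25 and 0.11.

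Of 14 measured genes of myelin lipid synthesis, 5 fell and 2 rose, with a median of -0.21. Squalene epoxidase, Sqle, and squalene synthase, Fdft1, of the cholesterol pathway fell by 0.65 ± 0.08 and fell by 0.64 ± 0.09. Neurons and satellite glia express cholesterol genes too, and which cells the fall came from was not tested. Ugt8, which makes the galactocerebroside of myelin, fell by 0.40 ± 0.09 (limma adjusted p = 0.0128), and Elovl6, a fatty acid elongase, fell by 0.48 ± 0.12. Ugt8 lost the call with the actin covariate (-0.25, 0.107) and with the mean of its 2 probe sets (-0.05, 0.885), the second of which had a mean signal of 16.5. The others were Scd, which fell, and Cers6 and Plpp1, which rose by 0.33 ± 0.08 and 0.31 ± 0.09, named after their values were seen. The count of 5 fallers was 3 with the actin covariate. The count of 2 risers was 0 with the actin covariate, 1 with the replicate block or after median centring, and 1 without HP sham replicates 1 or 3, HP SNL replicates 1 or 2, LP sham replicate 2 or LP SNL replicates 1 or 3.

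Of 15 genes of the periaxin complex and the Schwann cell basal lamina, 6 rose and 0 fell, with a median of 0.27. They were led by the laminin chains Lama4 (0.75 ± 0.07) and Lamc1 (0.41 ± 0.06), the laminin receptor subunit Itgb1 (0.55 ± 0.08) and the collagen gene Col4a1 (0.54 ± 0.09), all of which blood vessels express too. Drp2 (0.02 ± 0.19) and Dag1 (0.19 ± 0.07) of the periaxin complex, and Utrn (-0.25 ± 0.11) and the dim Dmd (0.05 ± 0.45), did not pass. These were named after their values were seen. Dimmer probe sets of Dag1 (0.36 ± 0.08, limma adjusted p = 0.00997) and Drp2 (0.48 ± 0.14, 0.0371) did pass. Of 11 further genes of inherited Schwann cell neuropathy, 1 rose and 0 fell. This was Litaf, an endosomal protein also induced in macrophages, at 1.40 ± 0.10, from 888 ± 114 to 2317 ± 116 in HP. The next by p were Arhgef10 (0.15 ± 0.06), Sh3tc2 (0.10 ± 0.08) and Sbf2 (-0.31 ± 0.25), none of which passed.

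Markers of the repair and immature Schwann cell state had 10 risers and 2 fallers of 20, with a median of 0.32. Gfap rose by 1.61 ± 0.07, Jun by 1.54 ± 0.08 and the matrix gene Tnc by 1.28 ± 0.14. Shh rose by 2.51 ± 0.25 from a dim signal, 17.3 ± 2.56 to 75.3 ± 48.5 in HP and 22.7 ± 3.53 to 207 ± 47.7 in LP, and by 1.57 with a pseudocount of 32. The fallers were Ngfr, the p75 neurotrophin receptor (-0.71 ± 0.09), and Fabp7 (-0.57 ± 0.13), named after their values were seen. Gfap and Fabp7 are also genes of satellite glia, and Jun and Ngfr are also genes of sensory neurons. So are the further risers Gap43 and Bdnf, named after their values were seen. The counts of this list are therefore not particular to Schwann cells. With probe sets of the same gene averaged, the list had 6 risers, and with the actin covariate 1 faller.

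**Figure D3:**
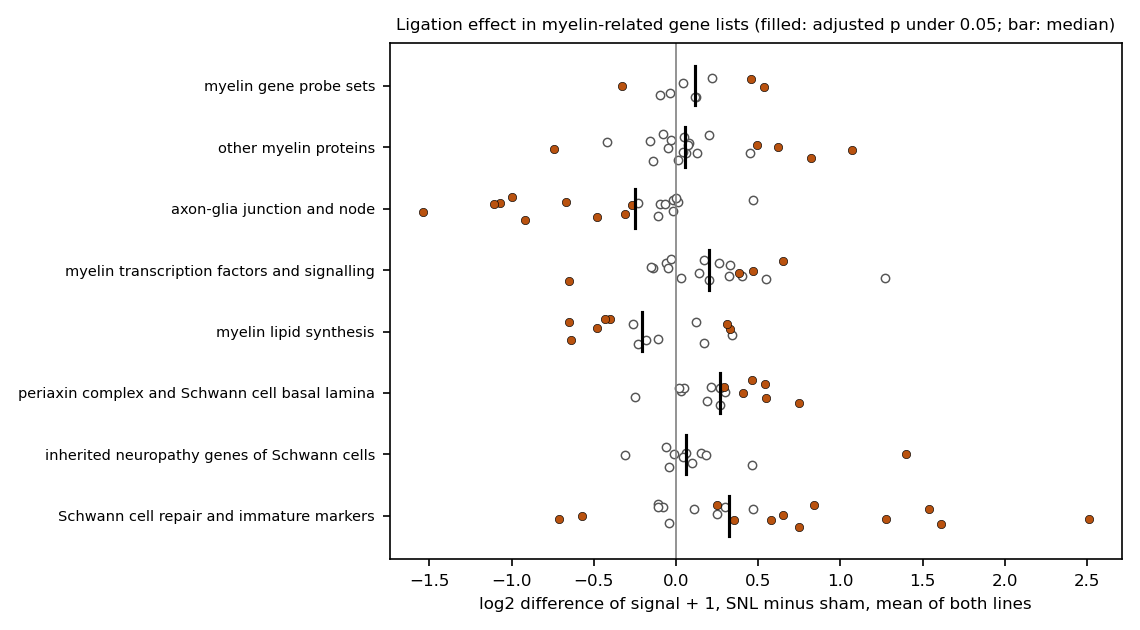
Log2 difference of SNL minus sham averaged over HP and LP (horizontal axis) for the 9 myelin probe sets and for each measured gene of 7 related lists, by its brightest probe set. Filled points have a limma adjusted p under 0.05, open points do not, and the bar is the median. It is -0.25 for the junction list, 0.05 for the other myelin proteins with relatives of members, and 0.32 for the repair list.

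The tissue carried the markers its label calls for, and several moved with ligation. S100b, a marker of Schwann cells and satellite glia, read 8024 ± 333 in HP sham and 8759 ± 648 in HP SNL, and 8100 ± 348 and 7269 ± 106 in the same LP groups, with an averaged difference of -0.02 ± 0.06. The summed signal of 6 measured Schwann cell markers, S100b included, was 13324 to 14229, 14250 to 16639, 12784 to 13726 and 13558 to 13712 in those groups. Of these 6, 2 rose and 0 fell, Sox10 (0.38 ± 0.07) and Mlip (0.25 ± 0.08, limma adjusted p = 0.0478), the latter named after its values were seen. The count was 1 with the replicate block, median centring, array weights or the actin covariate, and without any 1 array except HP SNL replicate 1 or LP sham replicate 2. Erbb3, the neuregulin receptor of Schwann cells, had 0.17 ± 0.08 (0.201). The 6 measured oligodendrocyte markers, which would mark central myelin of the root, summed to 1270 to 2060 over all arrays, with none called (1 rose without HP SNL replicate 2) and none at 0.

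Markers of other cell types changed beside Cnp. Of 12 macrophage markers 10 rose, and their summed signal was 6858 to 8076 in HP sham, 14659 to 16371 in HP SNL, 6159 to 6589 in LP sham and 13267 to 15536 in LP SNL. Of 7 genes of dividing cells 5 rose (1010 to 1171, 1701 to 2030, 729 to 1067 and 1754 to 1966), and of 10 fibroblast markers 9 rose and 1 fell (30077 to 32879, 42699 to 46624, 27797 to 32273 and 37094 to 47095). Of 9 satellite glia markers 3 rose and 3 fell (18712 to 22380, 19456 to 20097, 18980 to 22047 and 17030 to 18958). With probe sets of the same gene averaged, 1 satellite glia marker rose. Without the dimmest 25% of probe sets, 2 genes of dividing cells rose. Of 12 skeletal muscle markers 2 fell and 0 rose. Their summed signal did not overlap between sham and SNL in either line (6461 to 7506 and 4255 to 5192 in HP, 5651 to 6142 and 4752 to 5104 in LP). The fallers were Pvalb (-0.75 ± 0.18) and Tnni2 (-0.56 ± 0.17), named after their values were seen. Pvalb, which sensory neurons express too, went from 2035 ± 341 to 1215 ± 165 in LP. The LP sums therefore do not show a difference of muscle, and the part of Pvalb in them was not tested. Within HP, 3 of the 12 muscle markers fell and 0 rose, and within LP 0 were called. The HP fallers were Myh4 (-3.64 ± 0.99), Acta1 (-1.21 ± 0.34) and Myl1 (-1.19 ± 0.33), named after their values were seen (limma adjusted p 0.0437 to 0.0497). Between the lines after sham no muscle marker was called, and the median LP minus HP difference was -0.66. The part of muscle RNA in the HP differences was not tested. Averaged over the lines, the count of fallers was 5 without HP sham replicate 2, with trended and robust variance or with array weights. The count was 4 with the replicate block, without the dimmest 25%, after quantile normalization or after median centring. It was 1 with the actin covariate and without any other 1 array except LP sham replicate 1 or LP SNL replicate 3. Of 4 adipocyte markers 2 rose and 0 fell, Cfd (0.87 ± 0.15) and Fabp4 (1.48 ± 0.45), named after their values were seen. Fabp4 was dim, with means of 4.7 in HP sham and 17.9 in HP SNL. The adipocyte sums were 308 to 358 and 434 to 494 in HP, and 289 to 332 and 395 to 515 in LP, without overlap. The count of adipocyte risers was 1 with the replicate block, without the dimmest 25%, after quantile normalization, with pseudocounts of 16 or 32 or with the actin covariate. It was also 1 without any 1 array except HP SNL replicate 1 or LP SNL replicate 3. No marker of these lists was at 0 on all arrays. Their part in the rise of Cnp or the fall of Mal was not tested.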

How the data were processed

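Total RNA of 12 rat ganglion samples was hybridised to Affymetrix arrays, per the labels' protocols. The deposited table holds 1 linear intensity per probe set and array. The only tool in the submitters' processing notes is RMA, with no version. Every array has the same mean, 500.1, after the lowest and highest 2% of values are left out, the pattern of global scaling, so the authors' steps are not settled. Of 191076 values 109 were below 1, so log2 of the deposited intensity plus 1 was used, with no further normalization. Median signals were 278.4 to 313.2 per array, and the number of arrays limits the precision. Platform annotation gave 12783 probe sets 1 symbol, updated through RefSeq (GRCr8), while 312 had several and 2771 none.

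All 15866 non-control probe sets entered 1 limma 3.58.1 fit (R 4.3.3) of 4 group means with 8 residual degrees of freedom, two-sided, with Benjamini-Hochberg adjustment and a threshold of 0.05. The fit was also run on simulated data, with independent probe sets and known changes put into HP SNL only. That run cannot show how the fit handles effects shared by the probe sets of an array. Each member probe set was named, with up to 4 genes of each related list by smallest averaged p, and the 3 genes most like each member. The members, lists and motifs were chosen with earlier results of these data known. Alternatives were the replicate number as a block, filters, normalizations, pseudocounts of 16 and 32, variance settings, array weights, fewer arrays, gene-level tests and an actin covariate.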

Additional observations from a re-analysis of the deposited data

How the results depend on the processing

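Averaged over the lines, 3 of 9 myelin probe sets were called, 4 with the actin covariate, which added Mag, and 3 in the other alternatives that tested probe sets. At 1 value per gene, 2 of 6 genes were called. The number of arrays limits what can be seen within a line. In HP, 2 were called, but 1 with the replicate number as a block, 1 after median centring, 1 with the actin covariate, 0 when only HP arrays were fitted and 0 to 2 when 1 array was left out (0 without HP sham replicate 1, 2 without LP sham replicate 3, otherwise 1). It was 3, with Mal added, without the dimmest 25%, with trended and robust variance and with array weights. With 1 probe set per gene, 2 of 6 genes were called in HP, Cnp and Mal, and with probe sets averaged 1, Cnp. With only HP arrays fitted, the Cnp differences were the same by construction (adjusted p = 0.0565 and 0.135). In LP, 2 were called, but 1 when only LP arrays were fitted and 1 to 2 when 1 array was left out. No alternative called a myelin probe set between the lines or in the interaction. A fit of only the arrays compared was not run for the average or the interaction, which need all groups. The cause was not tested where a call changed.

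Within a line, deviations of same-numbered sham and SNL arrays correlated at -0.109 to 0.112, and those of arrays with unlike numbers at -0.167 to 0.115. Same numbers thus showed no closer likeness. With 3 arrays per group, and no comparison of numbers across the lines, this cannot exclude a pairing. With the replicate block, Cnp on 1387897_at lost its call in HP (0.38, adjusted p = 0.0806), and the other member calls held.

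Over all probe sets, 1708 were called in HP, 915 with the actin covariate, 1069 when only HP arrays were fitted and 981 to 1775 without 1 array. The low counts were 981 without HP sham replicate 1, 1006 without HP sham replicate 3, 1102 without HP SNL replicate 2 and 1084 without HP SNL replicate 3. In LP, 1922 were called, 834 when only LP arrays were fitted and 1248 to 1837 without 1 array, lowest without LP SNL replicate 3. Averaged, 3327 were called, and 2745 to 3181 without 1 array. Between the lines after sham, 7 were called. The count was 0 with the replicate block, 15 without the dimmest 25%, 1 after quantile normalization, 38 with trended and robust variance, 1 with 1 probe set per gene, 0 with probe sets of a gene averaged, 15 with the actin covariate, 0 with only the arrays compared and 0 to 11 without 1 array. After SNL, 23 were called. Here the count was 10 with the replicate block, 37 without the dimmest 25%, 14 after quantile normalization, 44 with a pseudocount of 32, 68 with trended and robust variance, 37 with array weights, 11 with probe sets of a gene averaged, 14 with the actin covariate, 7 with only the arrays compared and 1 to 22 without 1 array. The interaction called 0, but 2 with the actin covariate and 0 to 3 without 1 array.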
